A study of Homo sapiens with 6 samples.

Results

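10 genes whose transcription follows ERK activity were followed across all 6 RNA-seq libraries of the series, out of 27434 rows in the gene tables. They are the phosphatases DUSP4, DUSP5 and DUSP6, the Sprouty proteins SPRY2 and SPRY4, the Sprouty-related SPRED1 and SPRED2, the ETS factors ETV4 and ETV5, and PHLDA1. They were found by matching the Entrez Gene number of each row to the symbol, and all 10 had a row of their own. All 10 also passed the filter on low counts, which left 13034 genes to test. The libraries came from HT-29, a human colorectal cancer cell line with an activating mutation in the kinase BRAF. Cells had been transfected with a pool of siRNAs against the long noncoding RNA HOXA-AS3 (siHOXA-AS3), with a pool against HOXB-AS3 (siHOXB-AS3), or with a control pool without a target (siNT). Each group had 2 libraries, and every library, siNT included, came from transfected cells of this 1 line. The labels give a dose of 10 nM, harvest after 48 hours and RNeasy extraction, while the study's methods state a different dose and another extraction reagent. Nothing in the labels says that the libraries of a group came from separate cultures, so the p-values below measure the spread between libraries, which may be technical.

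The RAS-ERK cascade carries growth factor signals from receptors at the membrane through RAS, the RAF kinases and MEK to ERK, and an activating BRAF mutation drives MEK and ERK without that input. Active ERK induces proteins that restrain the same cascade. DUSP phosphatases remove phosphate from ERK itself, Sprouty proteins act between the receptors and RAF, and SPRED proteins bring the RAS inhibitor neurofibromin to the membrane. ETV4 and ETV5 are transcription factors that relay ERK signalling into gene expression, and in the absence of ERK activity the repressor CIC keeps them and DUSP6 low. Because the 10 genes respond to ERK, their mRNA levels are often read together as a measure of pathway output. mRNA levels do not measure the phosphorylation of ERK, which was not measured here.

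The siRNAs define the groups, and they are shown to place their targets and to compare them with the transcripts of the 10 genes. The 4 siRNAs listed by the study for HOXA-AS3 matched annotated exons of that gene in GENCODE v29 (GRCh38) on chromosome 7, on the plus strand. For HOXB-AS3 the study lists 6 strands, of which 3 matched exons of that gene on the plus strand of chromosome 17 and the other 3 were their complements. In the order shown, the HOXA-AS3 siRNAs matched 1, 4, 1 and 1 of its 5 annotated transcripts. Those for HOXB-AS3 matched 2, 8 and 2 of 15. Each line gives the 19 bases that match the target transcript, without overhang.
HOXA-AS3, chr7:27155847-27155865: gagacagaauagcgaacaa
HOXA-AS3, chr7:27152656-27152674: caauggaagggccgaacaa
HOXA-AS3, chr7:27154078-27154096: aggaaaggacagcgaagcu
HOXA-AS3, chr7:27155265-27155283: guagacagggcacucguua
HOXB-AS3, chr17:48590450-48590468: cgacaaagggagacaaagu
HOXB-AS3, chr17:48600494-48600512: gagucgggcaugaaagaaa
HOXB-AS3, chr17:48590467-48590485: gucaaggggugaagggaaa
None of these 7 sequences or their complements matched a transcript of the 10 genes in full. The longest run shared with any of those transcripts, on either strand, was 9 to 11 of the 19 bases. Whether the pools acted on the 10 genes through such partial matches was not tested.

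RefSeq promoter windows (GRCh38.p14, 250 bases before to 50 after the start) were found for 6 of the 10 genes, in 9 windows. They were DUSP6, SPRY2, SPRY4, SPRED1, SPRED2 and PHLDA1, and no window was at hand for DUSP4, DUSP5, ETV4 or ETV5. The 250 bases before the start are shown for DUSP6, PHLDA1 and SPRY4, the genes with windows that had the largest fold changes. Capitals mark matches to an ETS motif (CGGAAG), to the CIC octamers (TGAATGAA, TGAATGGA, TCAATGAA and TCAATGGA), to AP-1 (TGANTCA) or to CRE (TGACGTCA), searched on both strands. These motifs were chosen after a wider set had been searched in the same windows.
DUSP6, chr12:89352502-89352751, minus strand: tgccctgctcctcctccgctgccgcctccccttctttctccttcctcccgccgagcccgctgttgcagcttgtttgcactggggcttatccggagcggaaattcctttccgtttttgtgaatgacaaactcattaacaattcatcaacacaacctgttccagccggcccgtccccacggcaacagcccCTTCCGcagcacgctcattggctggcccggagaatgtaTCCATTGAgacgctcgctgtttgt
PHLDA1, chr12:76031777-76032026, minus strand: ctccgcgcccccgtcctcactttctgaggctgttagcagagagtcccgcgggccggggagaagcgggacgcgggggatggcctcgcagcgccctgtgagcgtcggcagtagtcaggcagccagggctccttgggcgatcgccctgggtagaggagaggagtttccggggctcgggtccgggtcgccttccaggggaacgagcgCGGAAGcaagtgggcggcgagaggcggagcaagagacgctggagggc
SPRY4, chr5:142324248-142324497, minus strand: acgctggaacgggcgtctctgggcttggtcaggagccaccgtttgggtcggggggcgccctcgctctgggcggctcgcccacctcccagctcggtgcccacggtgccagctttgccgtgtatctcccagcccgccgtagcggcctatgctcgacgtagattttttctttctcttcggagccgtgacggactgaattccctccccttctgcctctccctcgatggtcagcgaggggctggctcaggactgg
The DUSP6 stretch held an ETS match 62 bases before the start and a CIC octamer 24 bases before it, both on the reverse strand, and a second CIC octamer lay within the 50 bases after the start. The PHLDA1 stretch held an ETS match 47 bases before the start, and the SPRY4 window held none of the 4 motifs. Among 35116 promoter windows, 19.5% held the ETS motif, 3.77% a CIC octamer, 7.71% the AP-1 motif and 1.85% the CRE motif. Of the 9 windows of the 6 genes, 3 held the ETS motif, 1 a CIC octamer, 1 the AP-1 motif and 0 the CRE motif. By gene, DUSP6, PHLDA1 and SPRED2 held the ETS motif, DUSP6 a CIC octamer and SPRED2 the AP-1 motif.

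Total expected counts ranged from 15998518 to 26263938 per library. Both siRNA targets were lower in the libraries labelled for them. HOXA-AS3 was at 0.13 and 0.19 FPKM in siHOXA-AS3 against 0.38 and 0.30 in siNT, at 12 to 38 counts per library, and its log2 fold change of -1.09 (SE 0.403) did not pass the test (adjusted p = 0.711 in edgeR). HOXB-AS3 was at 6.05 and 7.96 FPKM in siHOXB-AS3 against 27.04 and 29.3 in siNT, a log2 fold change of -1.96 (SE 0.248) with an adjusted p of 0.0678 in edgeR that missed the threshold, while DESeq2 called it. The libraries of the siHOXA-AS3 pair stood furthest apart. Taken over genes, the SD of their log2 difference was 0.726, against 0.425 for siNT and 0.371 for siHOXB-AS3. Across genes the siHOXA-AS3 difference had a Pearson r of 0.754 with GC content. The siNT difference had an r of -0.419 with GC content and the siHOXB-AS3 difference an r of 0.152. Each r is a description over genes that share the same 2 libraries. Of 8 epithelial markers, 7 were above 1 FPKM in every library and the eighth, CDX2, reached at most 0.34 FPKM. The 6 fibroblast markers reached at most 0.09 FPKM, the 3 endothelial markers at most 0.07 and the 4 leukocyte markers at most 1.21. The summed epithelial markers spanned 4397 to 4737 FPKM in siNT, 3758 to 5619 in siHOXA-AS3 and 4166 to 4186 in siHOXB-AS3. By CPM (counts scaled to library size), 5 of the 8 epithelial markers lay below both siNT libraries in siHOXB-AS3 (EPCAM, CDH1, VIL1, CDX2 and LGALS4), KRT8 and KRT18 lay above and KRT20 overlapped. EPCAM, an epithelial adhesion protein, was at 159 and 153 FPKM in siHOXB-AS3 against 270 to 296 in the other libraries, and CDH1, the junction protein E-cadherin, at 130 and 122 against 175 to 223. The part of these markers in the values below was not tested.

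All 10 genes were expressed in siNT cells, and their levels differed widely. Levels are in FPKM, which scales counts to gene length and library size and so allows genes to be compared. In such bulk libraries fewer expressing cells and less RNA per cell cannot be told apart. SPRED2 was highest at 66.8 ± 4.1 FPKM (SD, n = 2), followed by PHLDA1 at 49.5 ± 5.2 and ETV4 at 48.8 ± 3.9, whose ranges overlapped. ETV5 (18.4 ± 0.64) came next, then SPRED1 (15.1 ± 1.5) and DUSP5 (9.32 ± 1.1). DUSP4 (5.73 ± 0.40), SPRY4 (5.75 ± 0.078) and DUSP6 (5.68 ± 0.61) could not be ordered, since their libraries overlapped, and SPRY2 was lowest at 4.67 ± 0.0071. With 2 libraries per group, groups that do not overlap were common. By CPM, the libraries did not overlap in 28.6% of all 13034 genes tested for siHOXA-AS3 against siNT. The shares were 61.8% for siHOXB-AS3 against siNT and 45.3% for siHOXB-AS3 against siHOXA-AS3. The share of genes with all 3 groups apart was not computed. In each of the following sentences the value of replicate 1 stands before that of replicate 2.

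**Figure D1:**
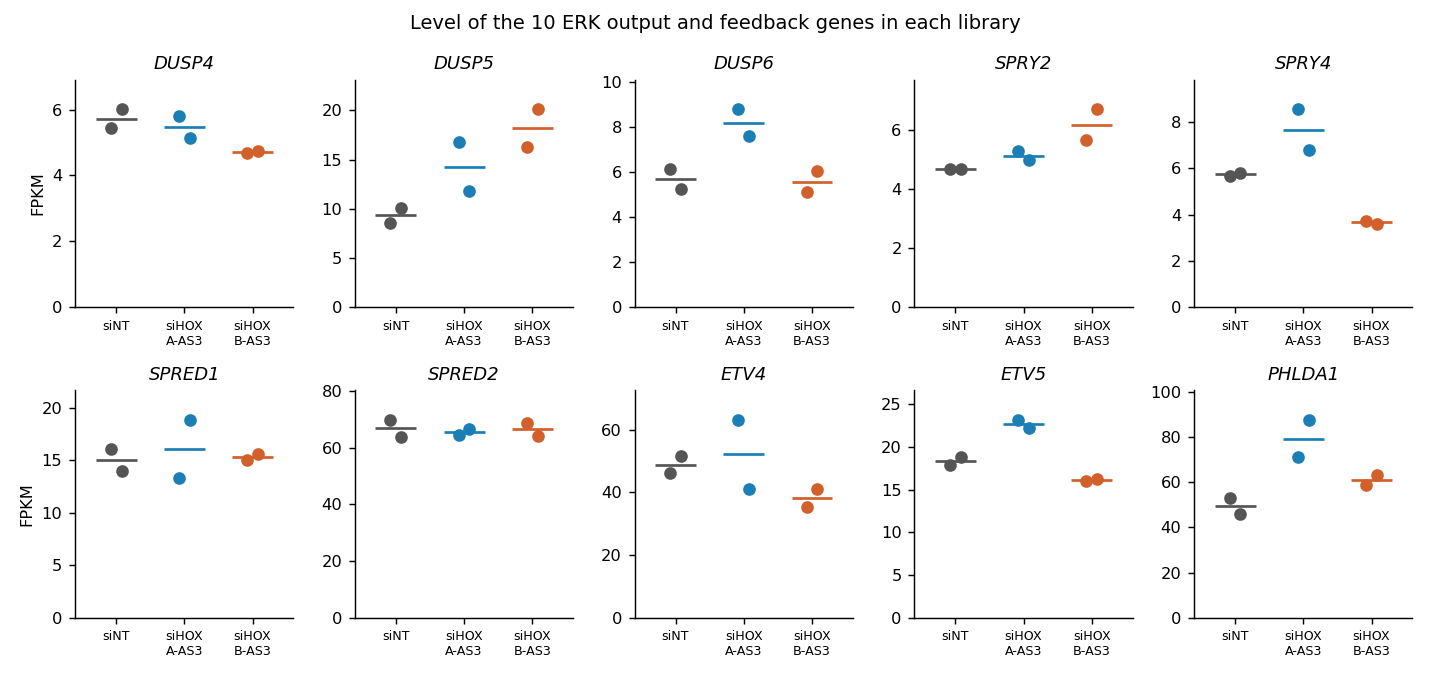
Level in FPKM (vertical axes, each from 0) of the 10 genes in each library, by siRNA pool, with points for single libraries and lines for the means of 2. DUSP5 lies above siNT in all 4 KD libraries, SPRY4 lies above siNT in siHOXA-AS3 and below it in siHOXB-AS3, and SPRED2 is level across the 6 libraries.

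The nuclear ERK phosphatases DUSP4 and DUSP5 showed different patterns. DUSP5 (Entrez Gene 1847, chr10:110497838-110511544, GRCh38) is a nuclear phosphatase specific for ERK. It was at 8.56 and 10.1 FPKM in siNT, 16.8 and 11.8 in siHOXA-AS3, and 16.3 and 20.1 in siHOXB-AS3. All 4 knockdown (KD) libraries lay above both siNT libraries, and the KDs overlapped each other. DUSP4 (Entrez Gene 1846, chromosome 8), a nuclear phosphatase that also acts on JNK and p38, was at 5.44 and 6.01 FPKM in siNT, 5.80 and 5.14 in siHOXA-AS3, and 4.69 and 4.75 in siHOXB-AS3. Its siHOXB-AS3 libraries lay below the other 4.

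DUSP6 (Entrez Gene 1848, chr12:89347232-89353271), the cytoplasmic ERK phosphatase and a standard marker of ERK activity, was at 6.11 and 5.25 FPKM in siNT, 8.78 and 7.59 in siHOXA-AS3, and 5.09 and 6.03 in siHOXB-AS3. Only the siHOXA-AS3 libraries lay apart, above the other 4. In GENCODE v29, 1875 of its 4632 exon bases are shared with AC024909.2 on the opposite strand. The strand setting of the counting is not given in the sources used here, and without strand the reads of these genes could not be told apart.

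The Sprouty genes had their groups in different orders, and neither passed the test in edgeR. SPRY4 (Entrez Gene 81848, chr5:142310427-142326455), which restrains signalling between receptors and RAF, was at 5.69 and 5.80 FPKM in siNT, 8.56 and 6.79 in siHOXA-AS3, and 3.74 and 3.6 in siHOXB-AS3. The 3 groups did not overlap, with siHOXA-AS3 highest and siHOXB-AS3 lowest. SPRY2 (Entrez Gene 10253, chr13:80335976-80340951), its close relative, was at 4.67 and 4.66 FPKM in siNT, 5.27 and 4.96 in siHOXA-AS3, and 5.64 and 6.68 in siHOXB-AS3. Here too the groups did not overlap, but siHOXB-AS3 was highest. SPRY2 had the fewest counts of the 10 genes, 161 to 315 per library.

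Both SPRED genes overlapped siNT in each KD. SPRED2 (Entrez Gene 200734, chr2:65310851-65432637) was at 69.7 and 63.9 FPKM in siNT, 64.6 and 66.5 in siHOXA-AS3, and 68.9 and 64.1 in siHOXB-AS3, and all 3 groups overlapped. SPRED1 (Entrez Gene 161742, chr15:38252326-38357249) was at 16.1 and 13.99 FPKM in siNT, 13.3 and 18.9 in siHOXA-AS3, and 15.02 and 15.6 in siHOXB-AS3. Its siHOXA-AS3 libraries lay on either side of all the others. Its expected counts were not whole numbers, so RSEM had divided some of its reads among genes.

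Of the ETS factors, ETV5 separated the groups and ETV4 did so in part. ETV5 (Entrez Gene 2119, chr3:186046308-186110318) was at 17.9 and 18.8 FPKM in siNT, 23.2 and 22.2 in siHOXA-AS3, and 16.1 and 16.2 in siHOXB-AS3, with no overlap between any groups. It shares 164 of 5802 exon bases with DGKG on its own strand. ETV4 (Entrez Gene 2118, chr17:43527844-43579620) was at 46.1 and 51.6 FPKM in siNT, 63.0 and 41.1 in siHOXA-AS3, and 35.4 and 40.9 in siHOXB-AS3. Its siHOXB-AS3 libraries lay below siNT, and its siHOXA-AS3 libraries lay on either side of siNT.

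PHLDA1 (Entrez Gene 22822, chr12:76025447-76033932), a pleckstrin-homology domain protein induced by growth factor signalling, was at 53.2 and 45.8 FPKM in siNT, 71.0 and 87.5 in siHOXA-AS3, and 58.9 and 63.1 in siHOXB-AS3. The groups did not overlap, with siHOXA-AS3 highest and siNT lowest. Its expected counts were not whole either, and it shares 553 exon bases with AC011611.3 and 779 with AC011611.4 on the opposite strand, out of 8069.

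Within the siHOXA-AS3 pair, the difference between replicates went with GC content at the ends of the range. ETV4, with the highest transcript GC content of the 10 (60.5%), and SPRY4 (57.3%) and DUSP5 (55.1%) were higher in replicate 1 than in replicate 2, while PHLDA1 (43.2%) and SPRED1 (44.7%), with the lowest, were higher in replicate 2. SPRY2 (46.8%), the next lowest, was slightly higher in replicate 1. For ETV4 and SPRED1 this distance was larger than any distance between group means. Each comparison below is therefore also given with a smooth trend of log2 counts on GC content removed from each library.

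The comparison of HOXA-AS3 KD with siNT asks which transcripts differ once HOXA-AS3 is reduced. 6 of the 10 genes, namely DUSP5, DUSP6, SPRY2, SPRY4, ETV5 and PHLDA1, were above siNT in both siHOXA-AS3 libraries by CPM, and 0 were below. Over all 13034 genes, 12.5% lay above and 28.6% lay above or below. PHLDA1 had the highest log2 fold change, 0.69 (SE 0.169), followed by DUSP5 at 0.63 (SE 0.243) and DUSP6 at 0.53 (SE 0.208). SPRY4 was at 0.43 (SE 0.197) and ETV5 at 0.32 (SE 0.160), and the other 5 genes lay between -0.05 and 0.15. The median of the 10 was 0.23, against 0.01 for all genes tested.

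None of these differences passed the test. EdgeR (quasi-likelihood test, p-values adjusted by Benjamini-Hochberg over 13034 genes) called 0 of the 10 and 0 of all genes (0%), and DESeq2 called 0 of the 10 and 49 of all genes. The lowest adjusted p of the 10 in edgeR was 0.517, for PHLDA1. At an unadjusted p under 0.05, edgeR had 3 of the 10, DUSP5, DUSP6 and PHLDA1, all higher, against 803 genes or 6.16% of all genes. With the GC trend removed edgeR called DUSP5 (adjusted p = 0.0317) and PHLDA1 (adjusted p = 0.0131), both higher, where 4.31% of genes were called. Both calls were lost when the siHOXB-AS3 pair was also kept out (adjusted p = 0.0747 for each), an alternative chosen after seeing the data.
The calls depended on which siHOXA-AS3 libraries entered the fit. Without replicate 1 edgeR called PHLDA1 and SPRED1 higher (30.3% of all genes called), and without replicate 2 it called DUSP5, DUSP6, SPRY4, ETV4 and PHLDA1 higher (17.9%). PHLDA1 was called in both cases, at log2 fold changes of 0.84 and 0.53. In these fits the lone siHOXA-AS3 library has no spread of its own and is given that of the other groups.

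The comparison of HOXB-AS3 KD with siNT asks the same of HOXB-AS3. The 10 genes lay on both sides of siNT. DUSP5, SPRY2 and PHLDA1 were above siNT in both siHOXB-AS3 libraries, DUSP4, SPRY4, ETV4 and ETV5 were below, and DUSP6, SPRED1 and SPRED2 overlapped siNT. Over all genes tested, 61.8% had KD libraries that did not overlap siNT. DUSP5 differed most, at a log2 fold change of 1.01 (SE 0.243), a 2.02-fold higher level. SPRY4 followed in the other direction at -0.61 (SE 0.198), then SPRY2 at 0.45 (SE 0.211), PHLDA1 at 0.35 (SE 0.169), ETV4 at -0.31 (SE 0.232) and DUSP4 at -0.23 (SE 0.183). DUSP6, the standard marker, was at 0.02 (SE 0.208). The median of the 10 was 0.03 and that of all genes -0.01.

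EdgeR called 0 of the 10 and 8 genes in all (0.0614%), with adjusted p-values of 0.171 for DUSP5 and 0.28 for SPRY4. Those were the 2 of the 10 genes with an unadjusted p under 0.05, against 12.2% of all genes. DESeq2 called DUSP5 higher (adjusted p = 0.0111, 2.71% of genes called). With the GC trend removed edgeR called DUSP5 higher (adjusted p = 0.00208) and SPRY4 lower (adjusted p = 0.0193), where 14.1% were called. When the siHOXA-AS3 pair was kept out of the fit it called DUSP5 and PHLDA1 higher and SPRY4 and ETV4 lower (23.3%). The same 4 genes were called when siHOXA-AS3 replicate 1 (22.7%) or replicate 2 (22.6%) was left out, although neither library belongs to this comparison and both enter it only through the filter, the scaling and the shared estimate of the spread.

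The KDs were then compared with each other, using the same libraries as above. SPRY4 was lower in HOXB-AS3 KD than in HOXA-AS3 KD, with a log2 fold change of -1.03 (SE 0.199), which is 0.489 of its level in HOXA-AS3 KD. DUSP6 was at -0.52 (SE 0.208), ETV5 at -0.45 (SE 0.161), ETV4 at -0.42 (SE 0.232) and PHLDA1 at -0.34 (SE 0.169). DUSP5 (0.39, SE 0.240) and SPRY2 (0.30, SE 0.210) were on the other side of 0. By CPM, DUSP4, DUSP6, SPRY4, ETV5 and PHLDA1 had the siHOXB-AS3 pair wholly below the siHOXA-AS3 pair, as did 22.5% of all genes, and only SPRY2 of the 10 was higher (45.3% of genes either way). ETV4 overlapped by CPM, while its FPKM values were just apart. The median of the 10 was -0.26, against -0.01 for all genes.

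EdgeR called 0 of the 10 and 1.57% of all genes, and SPRY4 missed the threshold with an adjusted p of 0.0588. DUSP6, SPRY4 and ETV5 had an unadjusted p under 0.05, against 18.4% of all genes. DESeq2 called SPRY4 lower (adjusted p = 0.00183, 6.14% of genes called). With the GC trend removed edgeR called DUSP6, SPRY4, ETV4, ETV5 and PHLDA1 lower, with adjusted p-values from 0.000634 for SPRY4 to 0.0384 for ETV4, where 26.7% of genes were called. Without siHOXA-AS3 replicate 1 it called SPRY4, ETV5 and PHLDA1 lower and DUSP5 higher (37.8%), and without replicate 2 SPRY4, DUSP6, ETV4 and ETV5 lower (36%). SPRY4 kept its direction under all 18 alternatives tried, with log2 fold changes from -1.19 to -0.85, and was called under 7 of them.

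**Figure D2:**
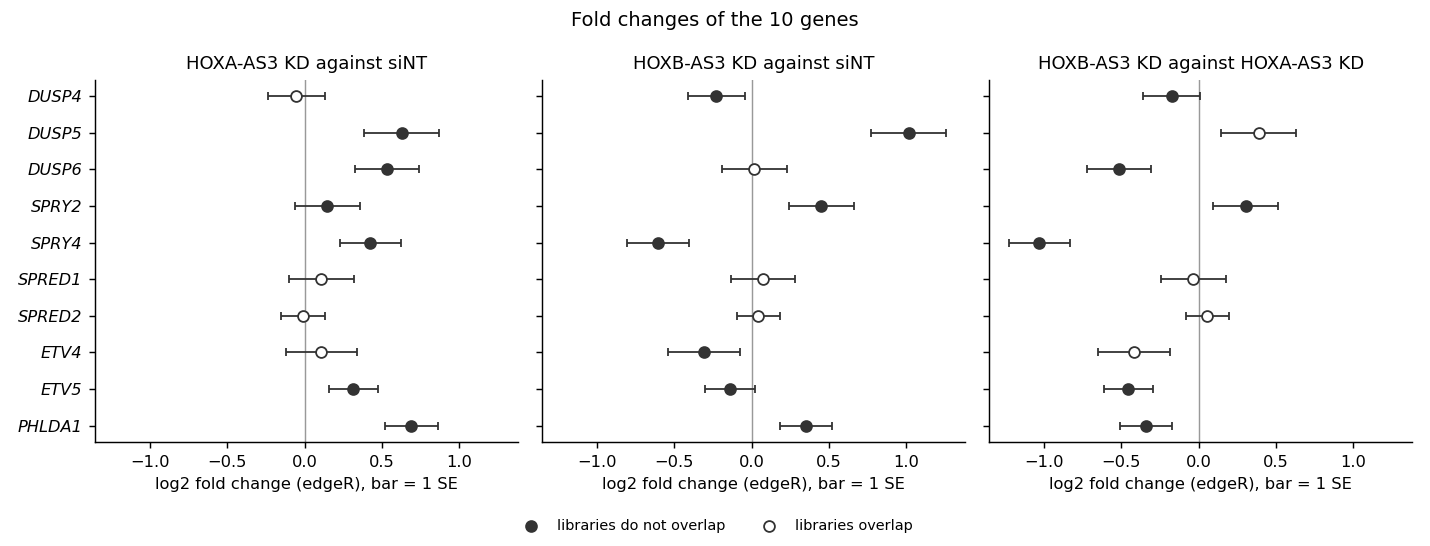
Log2 fold changes (horizontal axes) of the 10 genes in the 3 comparisons, from edgeR, with bars of 1 SE. Filled points mark genes whose libraries did not overlap by CPM. DUSP5 stands at 1.01 in HOXB-AS3 KD against siNT and SPRY4 at -1.03 between the KDs, and none of the points passed an adjusted p of 0.05.

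**Figure D3:**
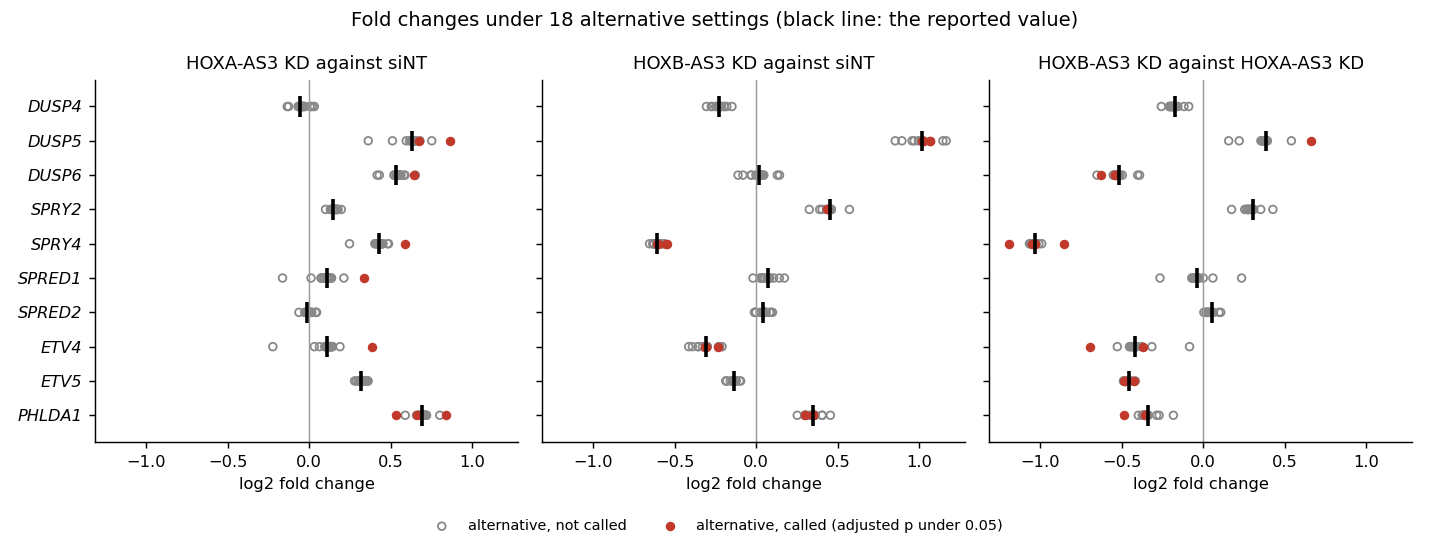
Log2 fold changes (horizontal axes) of the 10 genes under 18 alternatives, with open circles where the gene was not called, red circles where it was (adjusted p under 0.05), and a black line at the reported value. SPRY4 between the KDs runs from -1.19 to -0.85 and DUSP5 in HOXB-AS3 KD against siNT from 0.85 to 1.16, while SPRED2 stays close to 0.

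SPRY4 and ETV5 were the 2 of the 10 genes with the libraries of the KDs on opposite sides of both siNT libraries, each higher in HOXA-AS3 KD and lower in HOXB-AS3 KD. 1179 of 13034 genes (9.05%) lay on opposite sides in one direction or the other. Their values side by side were log2 fold changes of 0.43 and -0.61 for SPRY4 and 0.32 and -0.14 for ETV5, all against the same siNT libraries.

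The 10 genes also differed in how alike their profiles were over the 6 libraries. Likeness was measured as the root mean square difference of log2 CPM after subtracting each gene's mean. DUSP6 and ETV5 were nearest to each other, at 0.149, and ETV5 was also nearest to SPRY4, at 0.260. PHLDA1 was nearest to DUSP6 (0.208), DUSP5 to SPRY2 (0.281), and ETV4 to DUSP4 (0.164). DUSP4 and SPRED2 were nearest to each other (0.153), and SPRED2 was the nearest of the 10 to SPRY2 (0.198) and to SPRED1 (0.159), while SPRED2 itself varied by only 0.0489 around its mean. DUSP4, SPRY2 and SPRED1 varied by 0.116, 0.199 and 0.163 around their own means. Their distances to SPRED2 were close to or above these values, so they do not show that the profiles were alike. Every one of the 10 had many nearer genes outside the set, so that ETV5 ranked 63rd among the 10959 genes compared with DUSP6, the best rank of any pair. Among all genes whose mean FPKM was 1 or more, the nearest were IGF2BP2 for DUSP4 (0.0230), GLS2 for DUSP5 (0.0920), SGK1 for DUSP6 (0.0598), TBX19 for SPRY2 (0.0370), AKR1C1 for SPRY4 (0.0645), PHF20L1 for SPRED1 (0.0240), UBE3C for SPRED2 (0.0306), GALNT14 for ETV4 (0.0508), CD63 for ETV5 (0.0360) and FNDC3A for PHLDA1 (0.0647).

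3 further lists gave the rest of the pathway, 12 other feedback genes, 15 other output genes and 25 genes of the cascade itself. Of the feedback genes 11 could be tested (not DUSP9), of the output genes 13 (not EPHA4 or EGR3), and of the cascade genes all 25. EdgeR called 1 of these 49 genes, between the KDs, where 1.57% of all genes were called, and 0 in each KD against siNT. DESeq2 called 0 in HOXA-AS3 KD, EPHA2 and MYC in HOXB-AS3 KD (2.71% of all genes called), and SPRED3, IER3, EPHA2, JUN, MYC and SOS2 between the KDs (6.14%). With the GC trend removed, edgeR called 4, 8 and 21 of the 49 in these comparisons, where 4.31%, 14.1% and 26.7% of all genes were called. The 4 in HOXA-AS3 KD were SPRED3, ERRFI1 and JUNB, all higher, and CCND1, lower. SPRED3, the third SPRED gene, was lower in HOXB-AS3 KD than in HOXA-AS3 KD, with a log2 fold change of -2.23 (SE 0.368, adjusted p = 0.0458). It was at 0.39 and 0.40 FPKM in siNT, 1.10 and 0.70 in siHOXA-AS3, and 0.22 and 0.15 in siHOXB-AS3, so that it too lay above siNT in one KD and below it in the other, at a low level. Its counts were not whole numbers. The call held under 10 of 17 alternatives and was lost without any 1 of the siNT or siHOXB-AS3 libraries, with adjusted p-values up to 0.538 (without siHOXB-AS3 replicate 2) and log2 fold changes from -2.54 to -1.79. Against siNT it was at 1.21 (SE 0.347) in HOXA-AS3 KD and at -1.02 (SE 0.378) in HOXB-AS3 KD, with adjusted p-values of 0.614 and 0.338 in edgeR.

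For the list counts that follow, 6687 of all 13034 genes tested were higher in HOXA-AS3 KD than in siNT and 6430 in HOXB-AS3 KD. The genes of a list share the same libraries, so these counts are descriptions. Among the other feedback genes, 6 of 11 were higher in HOXA-AS3 KD than in siNT and 6 of 11 in HOXB-AS3 KD, with medians of 0.10 and 0.07 on the log2 scale. DUSP10, a phosphatase for JNK and p38, was lowest of those whose libraries did not overlap in HOXA-AS3 KD, at -0.42 (SE 0.341), with 0.86 and 0.73 FPKM in siNT and 0.72 and 0.46 in siHOXA-AS3. DUSP2, a nuclear phosphatase, was highest in HOXB-AS3 KD at 1.04 (SE 0.544), with 0.44 and 0.48 FPKM in siNT and 1.06 and 0.76 in siHOXB-AS3. Both were below 1.1 FPKM and neither passed the test.

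Among the other output genes, 10 of 13 were higher in HOXA-AS3 KD and 9 of 13 in HOXB-AS3 KD, with medians of 0.38 and 0.14. CCND1, the cyclin that ERK signalling induces to start the cell cycle, was at 13.8 and 12.6 FPKM in siNT, 8.0 and 6.74 in siHOXA-AS3, and 10.1 and 10.6 in siHOXB-AS3. Its siHOXA-AS3 value was a log2 fold change of -0.83 (SE 0.185, adjusted p = 0.510 in edgeR), on the other side of 0 from DUSP6, ETV5 and PHLDA1. With the GC trend removed edgeR called CCND1 lower there (adjusted p = 0.0465). MYC, a transcription factor that promotes growth, was at 105 and 97.6 FPKM in siNT, 126 and 122 in siHOXA-AS3, and 191 and 226 in siHOXB-AS3. Its log2 fold change in HOXB-AS3 KD was 1.09 (SE 0.154, adjusted p = 0.0774 in edgeR), and it was called higher by DESeq2 (adjusted p = 0.000102), with the GC trend removed (0.00631) and with only the groups compared (8.0e-08). EPHA2, a receptor tyrosine kinase named here after its values were seen, was at 40.2 and 47.2 FPKM in siNT, 59.99 and 32.01 in siHOXA-AS3, and 82.3 and 90.1 in siHOXB-AS3, with a log2 fold change in HOXB-AS3 KD of 1.03 (adjusted p = 0.219 in edgeR, 0.0158 in DESeq2). JUNB, an AP-1 subunit, was at 13.4 and 16.6 FPKM in siNT and 36.2 and 17.8 in siHOXA-AS3, so its log2 fold change of 0.86 (SE 0.339) rested mostly on replicate 1. With the GC trend removed edgeR called it higher (adjusted p = 0.0113). ETV1, the third member of the ETV4 and ETV5 group, was at 1.54 and 1.43 FPKM in siNT, 2.10 and 2.06 in siHOXA-AS3, and 1.22 and 0.98 in siHOXB-AS3. Like ETV5 it lay above siNT in HOXA-AS3 KD and below it in HOXB-AS3 KD, and the log2 fold change between the KDs was -0.85 (SE 0.221, adjusted p = 0.113 in edgeR).

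No gene of the cascade itself was called by edgeR in the fit reported. 16 of 25 genes were higher in HOXA-AS3 KD and 11 of 25 in HOXB-AS3 KD, with medians of 0.10 and -0.09, and the lowest adjusted p in edgeR was 0.147, for SOS2 between the KDs. BRAF, the mutated kinase, was at 11.5 and 11.3 FPKM in siNT, 12.6 and 14.04 in siHOXA-AS3, and 13.0 and 12.4 in siHOXB-AS3, a log2 fold change of 0.23 (SE 0.177) and 0.21 (SE 0.177). PTPN11, the phosphatase SHP2 that links receptors to RAS, was the highest in HOXB-AS3 KD of those that did not overlap siNT, at 0.22 (SE 0.188). KSR1, the scaffold that holds RAF, MEK and ERK together, was lowest in both KDs, at -0.68 (SE 0.380) and -0.86 (SE 0.381), with 0.80 and 0.70 FPKM in siNT, 0.61 and 0.31 in siHOXA-AS3, and 0.35 and 0.45 in siHOXB-AS3.

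**Figure D4:**
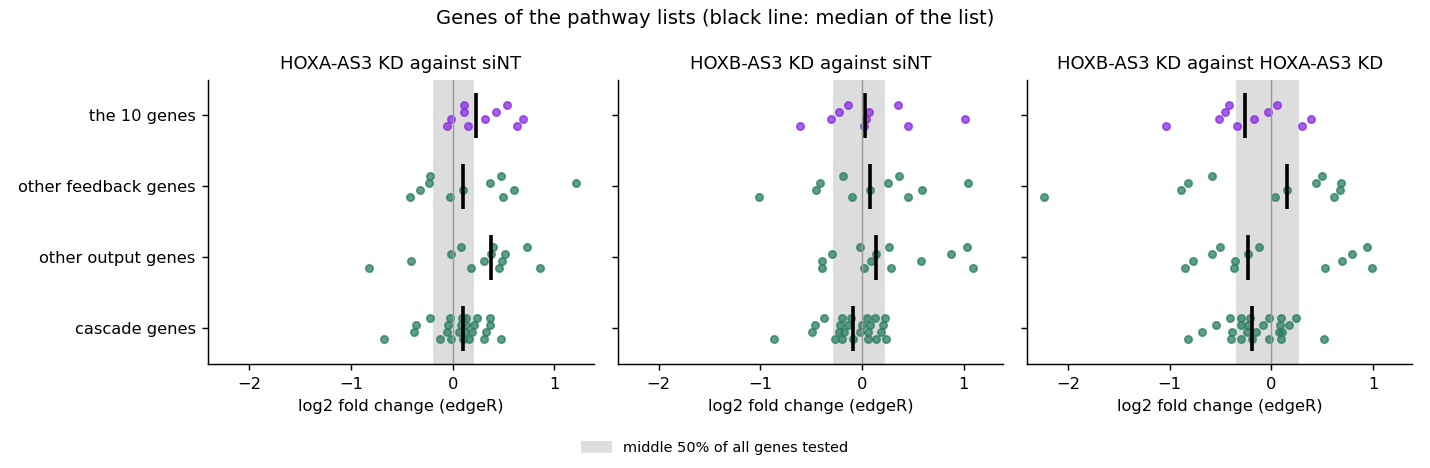
Log2 fold changes (horizontal axes, edgeR) of the 10 genes and of the tested genes of the 3 further lists in each comparison, with 1 point per gene, a black line at each list's median and a grey band for the middle 50% of all genes tested. The medians of the 10 genes are 0.23, 0.03 and -0.26, and the point at -2.23 between the KDs is SPRED3.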

How the data were processed

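RNA-seq was analysed in 6 HT-29 libraries, 2 each of siNT, siHOXA-AS3 and siHOXB-AS3, with groups taken from the sample labels. The study's methods describe Lexogen SENSE mRNA libraries and quantification with RSEM on RefSeq genes, and the submitters' processing notes name RSEM and hg19. For the aligner, the RSEM version and the strand setting the sources used here give nothing. The expected counts that the authors deposited are RSEM estimates of fragments per gene, not normalized, and these were the values tested. The deposited FPKM values, scaled by the authors to gene length and library size, gave the levels. The authors also deposited TPM, which was not used. Of the 27434 rows, 627 hold more than 1 gene, with 6.02% to 6.62% of all counts, and rows without a symbol held at most 0.276%. Total expected counts per library were 15998518 to 26263938, and no pair of libraries was identical (smallest chi-square per degree of freedom 6.77).

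After rounding, expected counts went into edgeR 4.0.16 (R 4.3.3) with filterByExpr (minimum count 10), TMM and 1 robust quasi-likelihood fit over all 6 libraries, without a block. Benjamini-Hochberg adjustment ran over 13034 genes, with a threshold of 0.05. The 3 comparisons share libraries. SEs were taken from the fold change and its F statistic. Libraries were compared for overlap by TMM-scaled CPM. The members and gene lists were chosen with earlier results of these data known. Of the further lists, genes called in a comparison were named, and for each list and each KD against siNT the highest and lowest gene whose libraries did not overlap siNT. Others called by DESeq2 were named after their values were seen. Alternatives were DESeq2 1.42.0, scaling by library totals or by RLE size factors, a filter at a mean FPKM of 1 or none beyond 1 count, a fit of only the groups compared, a replicate block, limma-trend (limma 3.58.1) on log2(FPKM + 0.1), removal of a loess trend (span 0.3) on gene length or GC content, and leaving out each library. 2 more, DESeq2 with its alpha at 0.05 and the GC trend removed with only the groups compared, were added after the data had been seen. Exons, gene positions and GC content were taken from GENCODE v29 (GRCh38), and 96.8% of genes tested had a GC value. Coordinates of the deposited files were not used.

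Same-numbered libraries did not deviate together in each pair of groups. Their deviations also went with GC content, in opposite directions in siNT and siHOXA-AS3, so this cannot show whether the numbers pair the samples. Nothing in the labels says that they do, and the fit reported has no block.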

Additional observations from a re-analysis of the deposited data

Results flagged for a closer look

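4 genes differed between the KDs in a way that asks for a second look. SPRED3 passed the threshold for the difference between HOXB-AS3 KD and HOXA-AS3 KD in edgeR, at -2.23 on the log2 scale (adjusted p = 0.0458), at 16 to 127 counts per library. SPRY4 had its KD libraries on opposite sides of both siNT libraries and a difference between the KDs of -1.03 on the log2 scale, with an adjusted p of 0.0588 that did not pass the threshold. ETV5 showed the same arrangement with a difference of -0.45 (adjusted p = 0.200), and ETV1 with a difference of -0.85 (adjusted p = 0.113). With 2 libraries per group no single library was examined as an outlier within its group.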

How the results depend on the processing

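In the fit reported, 0 of the 10 were called in each comparison. Under all alternatives, leave-one-out fits included, the 540 recomputed fold changes of the 10 genes held 464 with the same direction and side of the threshold, 50 that newly passed it and 26 that changed sign. The cause of these changes was not tested.

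In HOXA-AS3 KD against siNT, 0 genes were called in the fit reported. There DESeq2 called 49 of 17680 genes with a count, no filter on low counts 24 of 17680 and GC trend removal 544 (4.31%). Limma-trend on log2(FPKM + 0.1) and gene length trend removal each called 1 of 13034. Of the 10 genes GC trend removal called 2. In HOXB-AS3 KD against siNT, 8 genes were called in the fit reported. There DESeq2 called 331 (2.71%), no filter 265 of 17680, only the groups compared 2995 (23.3%) and GC trend removal 1784 (14.1%). Of the 10 genes these called 1, 1, 4 and 2. Between the KDs, 204 genes were called in the fit reported. There DESeq2 called 770 (6.14%), no filter 706 of 17680 and GC trend removal 3366 (26.7%), and of the 10 genes these called 1, 1 and 5. Only the groups compared called 2 of 12813 genes and limma-trend 93 of 13034. 2 alternatives were chosen after seeing the data. DESeq2 with its alpha at 0.05 called 56, 331 and 770 of 17680 genes in these comparisons and 0, 1 and 1 of the 10. GC trend removal with only the groups compared called 58 of 12402, 4350 of 12437 and 2207 of 12435 genes, and 0, 5 and 3 of the 10.

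With 1 library left out, the genes called ranged from 0 to 4031 for HOXA-AS3 KD against siNT, from 0 to 3035 for HOXB-AS3 KD against siNT and from 0 to 5027 between the KDs, and of the 10 genes from 0 to 5, 0 to 4 and 0 to 4. The counts above 16 all came without siHOXA-AS3 replicate 1 (4031, 3021 and 5027) or replicate 2 (2402, 3035 and 4842). Without siHOXB-AS3 replicate 1 or replicate 2, 0 genes were called in every comparison, and without siNT replicate 1 or replicate 2 at most 1 gene in either KD against siNT and 6 or 16 between the KDs.

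With the replicate number as a block, 0 genes were called in each KD against siNT, 10 were called between the KDs, and 0 of the 10 were called. Across genes, the deviations of same-numbered libraries had a Pearson r of -0.347 between siNT and siHOXA-AS3, -0.139 between siNT and siHOXB-AS3 and 0.15 between the KDs. As these deviations also went with GC content, the values cannot decide whether the libraries were paired. The libraries share a number and nothing more is known to pair them.

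Sign changes were in values near 0, apart from leave-one-out fits. In HOXA-AS3 KD against siNT, DUSP4 (reported at -0.05) was at 0.0048 with GC trend removal and 0.0095 with only the groups compared besides. SPRED2 (-0.01) was there at 0.0032 with DESeq2 under either alpha, 0.0044 with RLE size factors, 0.0156 with no filter, 0.0139 with only the groups compared, 0.0415 with GC trend removal and 0.045 with both of the latter. In HOXB-AS3 KD against siNT, DUSP6 (0.02) was at -0.0295 with library totals, -0.0021 with a mean FPKM of at least 1 and -0.0313 with limma-trend, and SPRED2 (0.04) at -0.0036 and -0.0067 with library totals and limma-trend. Between the KDs SPRED1 (-0.04) was at 0.059 with gene length trend removal. With 1 library left out, in HOXA-AS3 KD DUSP4 ranged from -0.135 to 0.0316, SPRED1 from -0.16 to 0.34, SPRED2 from -0.0629 to 0.0404 and ETV4 from -0.22 to 0.38. In HOXB-AS3 KD DUSP6 ranged from -0.11 to 0.14, SPRED1 from -0.0198 to 0.172 and SPRED2 from -0.0107 to 0.0997, and between the KDs SPRED1 ranged from -0.27 to 0.23.

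The 299 recomputed fold changes of the further pathway genes named by the rule, with SPRED3, ETV1, BRAF and EPHA2, held 253 with the same direction and side of the threshold, 39 that newly passed it, 7 that no longer did, all of them SPRED3 between the KDs, and 0 that changed sign. SPRED3 was lost with only the groups compared (adjusted p = 0.137), the replicate block (0.0961), limma-trend (0.0599) and without each of the siNT and siHOXB-AS3 libraries in turn, and the filter at a mean FPKM of 1 left it out. Depth limited SPRY2 most among the 10 genes, with 161 counts in siNT replicate 2, the shallowest library. The lowest count of SPRED3 was 16, in siHOXB-AS3 replicate 2, where its level was lowest.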
